A study of Mus musculus with 12 samples.

Results

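The genes described here are 9 genes of the follicular T cell programme, Bcl6, Tox, Tox2, Cxcr5, Pdcd1, Btla, Slamf6, Sh2d1a and Il21, chosen by name from the 23337 gene symbols of the deposited count files and found there without exception. The choice of these genes, like that of the gene lists used below, was made with earlier results of these data known. Levels of the 9 genes were followed in mouse regulatory T cells (Treg) of 2 kinds that had 1 or both alleles of Hrd1 floxed. Induced Treg (iTreg) were CD4 T cells kept for 5 days with IL-2 and TGF-beta, after which the GFP-positive cells were taken. Natural Treg (nTreg) were taken without culture, as CD4-positive, GFP-positive cells from spleen and lymph nodes. The groups were iTreg KO (Hrd1 flox/flox), iTreg WT (Hrd1 +/flox), nTreg KO (Hrd1 flox/flox) and nTreg WT (Hrd1 +/flox), with 3 libraries each and 12 in all. Every animal was C57BL/6, was aged 8 weeks and carried Foxp3-Cre with GFP, so the WT label also stands for cells with a floxed allele and active Cre, and no group had a pair of unfloxed alleles. Foxp3-Cre acts in cells that express Foxp3, the transcription factor that defines Treg. Whether replicates came from separate mice is not said in the labels. A p-value here thus measures the spread of these libraries alone, which may be technical in part. Levels of the sex-linked genes Xist and Ddx3y, given below, differed between replicates of iTreg WT, nTreg KO and nTreg WT. The replicates of these groups were thus not all repeats of 1 mouse.

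Follicular helper T cells enter B cell follicles and help B cells in germinal centres, and follicular regulatory T cells use much of the same programme to restrain that response. Bcl6, a transcriptional repressor, is needed for both. Cxcr5 brings the cells to the follicle along its ligand CXCL13, Slamf6 and its adaptor Sh2d1a (SAP) hold T and B cells in contact, Pdcd1 (PD-1) and Btla are inhibitory receptors, and Il21 is the cytokine with which helper cells drive germinal centre B cells. Tox and Tox2 are nuclear proteins of the HMG-box family, of which Tox2 is known to support the programme together with Bcl6. Hrd1, listed in the files under the symbol Syvn1, is a ubiquitin ligase that marks misfolded proteins of the endoplasmic reticulum for breakdown.

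The promoters of the genes on which the results turn are shown first, as RefSeq sequence of build GRCm38.p6, from 250 bases before to 50 bases after the start of each gene. Such windows were found for 6 of the 9 genes. The Slamf6 window ends just before the gene start printed below from GENCODE M21, so it holds no base of Slamf6 as annotated there. Capitals mark matches, on either strand, to 3 of the 4 motifs searched: GGAAA (the core of NFAT sites), CAGCTG (an E-box) and ACGTG (a core shared by sites of several leucine zipper and helix-loop-helix factors). The fourth, CTTTGA (the core of TCF and LEF sites), had no match in the 6 windows. Bcl6 is shown as the central regulator (chr16:23988803-23989102, minus strand), Pdcd1 as the member that was higher in iTreg (chr1:94052504-94052803, minus strand), and Slamf6 (chr1:171917212-171917511, plus strand) and Btla (chr16:45224087-45224386, plus strand) as receptors that were far lower there.
Bcl6: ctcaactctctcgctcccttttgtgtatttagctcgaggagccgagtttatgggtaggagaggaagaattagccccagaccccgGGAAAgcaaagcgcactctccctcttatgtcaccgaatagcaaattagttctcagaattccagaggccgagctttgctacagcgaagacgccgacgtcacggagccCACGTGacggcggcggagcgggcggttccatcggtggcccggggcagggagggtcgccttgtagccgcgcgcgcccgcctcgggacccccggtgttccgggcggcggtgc
Pdcd1: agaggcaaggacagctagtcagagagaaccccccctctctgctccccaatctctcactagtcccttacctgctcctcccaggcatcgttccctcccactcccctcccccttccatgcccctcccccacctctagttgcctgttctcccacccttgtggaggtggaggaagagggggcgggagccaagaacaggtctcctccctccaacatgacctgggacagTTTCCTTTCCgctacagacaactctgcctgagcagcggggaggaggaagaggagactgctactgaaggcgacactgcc
Slamf6: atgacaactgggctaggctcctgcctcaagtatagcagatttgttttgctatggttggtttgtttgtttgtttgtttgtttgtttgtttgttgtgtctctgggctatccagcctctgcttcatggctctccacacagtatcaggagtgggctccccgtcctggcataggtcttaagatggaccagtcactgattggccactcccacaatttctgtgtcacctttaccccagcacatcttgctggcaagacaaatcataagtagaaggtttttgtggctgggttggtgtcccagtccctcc
Btla: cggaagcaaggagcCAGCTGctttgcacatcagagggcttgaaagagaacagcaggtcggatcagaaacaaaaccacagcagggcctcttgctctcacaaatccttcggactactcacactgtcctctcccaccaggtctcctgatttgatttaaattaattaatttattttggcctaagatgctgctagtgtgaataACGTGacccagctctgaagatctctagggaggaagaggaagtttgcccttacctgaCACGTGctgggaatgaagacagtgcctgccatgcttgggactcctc

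The Pdcd1 window held 2 matches to GGAAA and the Bcl6 window held 1, a motif found in 61.3% of all 32851 windows of 300 bases. The Btla window held 1 match to CAGCTG (16.3% of all windows) and 3 to ACGTG (19.6% of all windows), and the Bcl6 window held 2 to ACGTG. That motif can match both strands at the same place, and was then counted for each strand, which gives 2 of the matches in Bcl6 and 2 of those in Btla. The Slamf6 window had no match to any of the 4 motifs, of which CTTTGA is in 16.0% of all windows. These matches describe letters in a window and say nothing about binding.

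Library totals ranged from 6763458 to 15462894 counts, and levels are given as CPM, counts scaled to a common library total, after TMM normalisation. Foxp3 was at 191 to 392 CPM in iTreg KO, 306 to 393 CPM in iTreg WT, 565 to 668 CPM in nTreg KO and 583 to 665 CPM in nTreg WT, and Cd4 was at 392 CPM or more in each library. Syvn1 was at 145.5, 136.8 and 129.7 CPM in nTreg KO against 73.7, 87.2 and 75.5 CPM in nTreg WT. It was thus higher in the libraries whose label gives both alleles as floxed (log2 fold change 0.80, SE 0.17, adjusted p = 0.023, quasi-likelihood test of edgeR, adjusted after Benjamini and Hochberg), a call that was lost when any 1 of the 6 nTreg libraries was left out (adjusted p of 0.056 to 0.12). In iTreg, Syvn1 was at 54.6, 73.1 and 63.1 CPM with the KO label against 61.6, 72.2 and 101 CPM with the WT label (log2 fold change -0.30, SE 0.17, adjusted p = 0.75). Gene-level counts include exons outside a floxed part, so they do not check the deletion, and each direction below goes by the labels KO and WT as given. Xist, which coats the inactive X chromosome, was at 2035 CPM in iTreg WT replicate 2 and at 486 and 723 CPM in nTreg KO and WT replicate 3, and at 0.232 CPM or less in the other 9 libraries (CPM here on plain totals). On the same scale Ddx3y, a gene of the Y chromosome, was at 0 CPM in iTreg WT replicate 2 and at 77.4 CPM or more elsewhere. It was at 142 and 102 CPM in nTreg KO and WT replicate 3, which thus held transcripts of both sexes. iTreg WT replicate 2 differed in sex from its same-numbered KO library (Ddx3y 77.4 CPM, Xist 0 CPM) and from all other iTreg libraries. The part of sex in the differences below was not tested. Counts of called follicular and list genes that moved by over 1.5 times without the 3 libraries with Xist are also given without them.

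**Figure D1:**
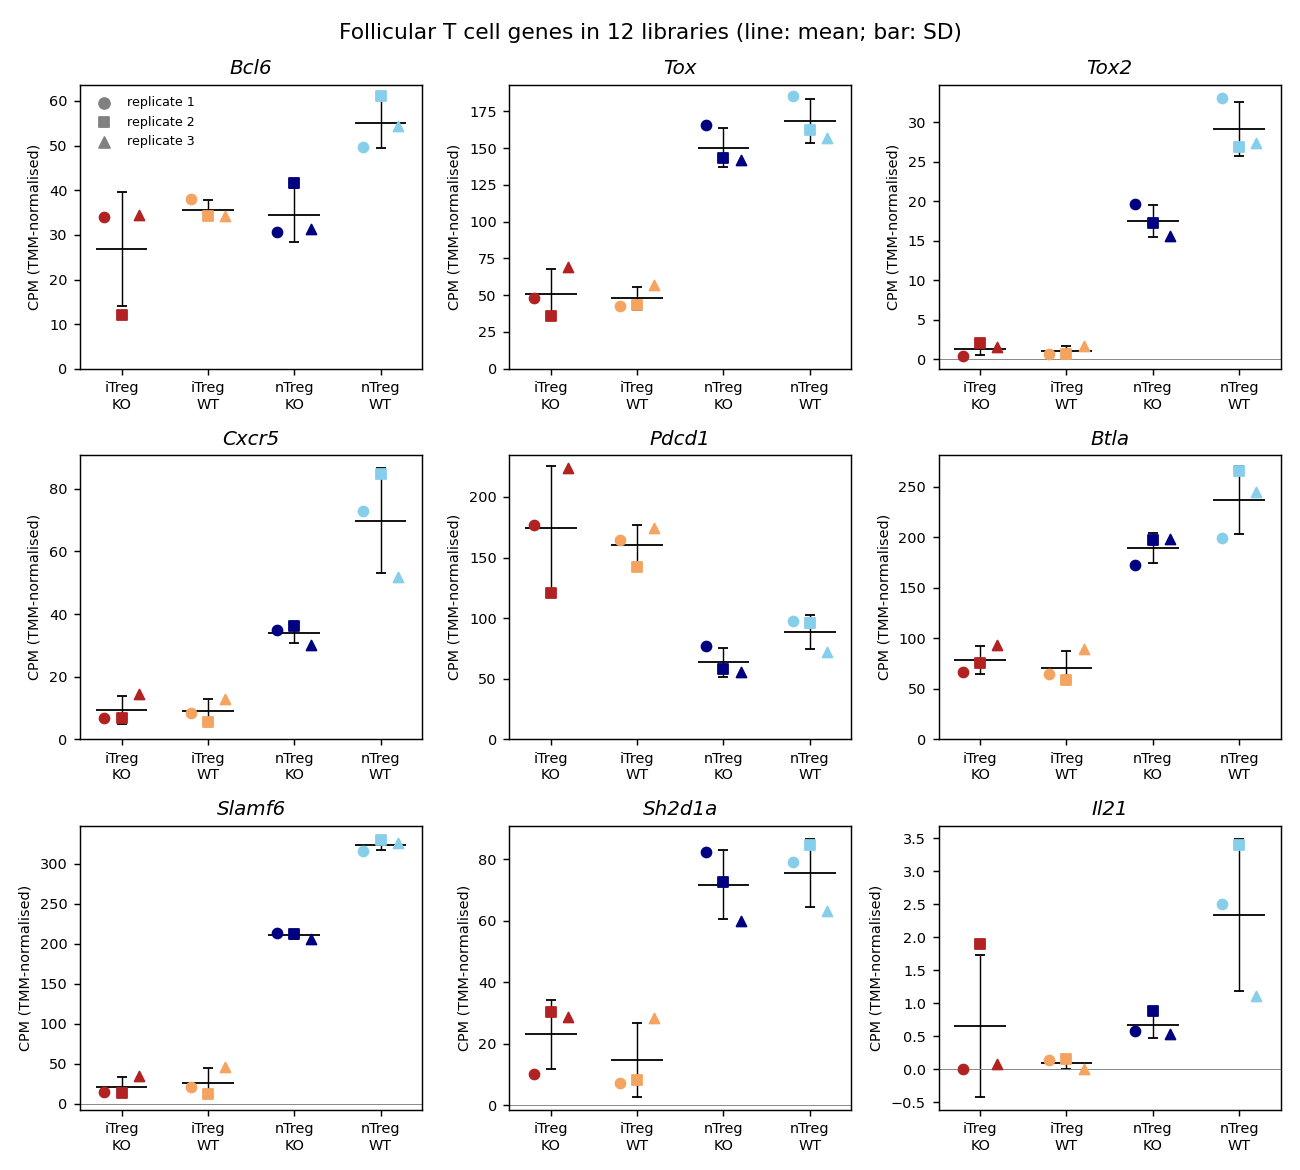
Level of each of the 9 genes in each of the 12 libraries, in CPM on TMM-normalised totals (y axis, from 0 at the grey line where the SD bar runs lower), by group (x axis). Symbols are replicates 1 to 3, the black line is the mean and the bar is the SD of 3 libraries. Pdcd1 stood highest in iTreg, and Cxcr5, Tox, Tox2, Sh2d1a, Slamf6 and Btla stood highest in nTreg.

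Per kilobase of exon, which allows levels of different genes to be compared, Btla (55.7 ± 4.37 and 69.6 ± 9.93 CPM per kb in nTreg KO and WT, SD, n = 3 each) and Pdcd1 (32.9 ± 6.16 and 46.0 ± 7.34) were the most abundant of the 9 in nTreg. In iTreg the order was turned round, with Pdcd1 at 90.1 ± 26.7 and 83.0 ± 8.71 CPM per kb in KO and WT and Btla at 23.1 ± 4.08 and 20.8 ± 4.84. Il21 was the least abundant in every group, at 0.126 and 0.0191 CPM per kb in iTreg KO and WT and at 0.127 and 0.445 in nTreg KO and WT.

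Among the transcription factors, Bcl6 (chromosome 16, 23965052 to 23988852, minus strand, mm10, GENCODE M21) was at 34.0, 12.1 and 34.6 CPM in iTreg KO replicates 1 to 3 against 38.1, 34.3 and 34.2 CPM in iTreg WT. In nTreg it was at 30.7, 41.5 and 31.4 CPM with the KO label against 49.8, 61.1 and 54.4 CPM with the WT label. nTreg WT stood above every other library, the other 3 groups overlapped, and iTreg KO replicate 2 was far below the rest. Tox (chromosome 4, 6686353 to 6991557, minus strand) was at 48.1, 35.8 and 69.0 CPM in iTreg KO against 43.0, 43.6 and 57.0 CPM in iTreg WT. It was at 166, 143 and 142 CPM in nTreg KO against 185, 162 and 157 CPM in nTreg WT. The cell types were clear of each other and the labels overlapped within each. Tox2 (chromosome 2, 163203125 to 163324170, plus strand) was close to absent from iTreg, at 0.417, 2.01 and 1.51 CPM in KO against 0.675, 0.678 and 1.72 CPM in WT, and was at 19.7, 17.2 and 15.6 CPM in nTreg KO against 33.1, 26.9 and 27.4 CPM in nTreg WT. All 3 nTreg KO libraries lay below all 3 nTreg WT libraries.

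The chemokine receptor gene Cxcr5 (chromosome 9, 44511787 to 44561877, minus strand) was at 6.89, 6.76 and 14.5 CPM in iTreg KO against 8.55, 5.57 and 13.0 CPM in iTreg WT. In nTreg it was at 34.9, 36.3 and 30.2 CPM with the KO label against 73.0, 84.8 and 51.7 CPM with the WT label. Levels were lowest in iTreg with either label, intermediate in nTreg KO and highest in nTreg WT, and only the iTreg groups overlapped. Its exons share 110 bp with those of Bcl9l, a gene on the opposite strand that averaged 151 CPM in nTreg KO and 192 CPM in nTreg WT. The strand setting of the counting is not given in the sources used here, so reads of such shared stretches cannot be told apart. Exons of Tox, Il21, Sh2d1a and Bcl6 share 260, 469, 1465 and 21 bp with other genes. For Sh2d1a the other gene is Tenm1 (listed as Odz1), which was at 0 CPM in every group.

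Of the inhibitory receptors, Pdcd1 (chromosome 1, 94038305 to 94052553, minus strand) was at 177, 121 and 224 CPM in iTreg KO against 164, 142 and 175 CPM in iTreg WT. It was at 77.2, 58.1 and 55.4 CPM in nTreg KO against 97.9, 95.8 and 72.4 CPM in nTreg WT. Every iTreg library was above every nTreg library, while the labels overlapped within each cell type. Btla (chromosome 16, 45224315 to 45257670, plus strand) ran the other way, at 66.4, 75.7 and 93.7 CPM in iTreg KO against 64.4, 58.4 and 89.4 CPM in iTreg WT. It was at 172, 197 and 198 CPM in nTreg KO against 199, 265 and 245 CPM in nTreg WT. The nTreg labels were just clear of each other, with the highest KO library 198 CPM and the lowest WT library 199 CPM, and overlapped when totals were not TMM-normalised.

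The contact receptor gene Slamf6 (chromosome 1, 171917515 to 171953170, plus strand) was at 15.0, 12.8 and 34.8 CPM in iTreg KO against 21.4, 11.4 and 46.2 CPM in iTreg WT. In nTreg it was at 213, 212 and 206 CPM with the KO label against 316, 331 and 326 CPM with the WT label, with a spread within each nTreg group (SD 4.03 and 7.27 CPM) that was small beside the gap between them. Its adaptor gene Sh2d1a (chromosome X, 42502453 to 42529330, plus strand) was at 10.02, 30.2 and 28.8 CPM in iTreg KO against 7.28, 8.21 and 28.5 CPM in iTreg WT. It was at 82.4, 72.8 and 60.0 CPM in nTreg KO against 79.0, 84.6 and 63.3 CPM in nTreg WT. For Sh2d1a the labels overlapped in both cell types.

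Il21 (chromosome 3, 37222759 to 37232636, minus strand) was close to the detection limit, with 0, 18 and 1 reads in iTreg KO, 2, 2 and 0 in iTreg WT, 5, 14 and 5 in nTreg KO and 17, 24 and 12 in nTreg WT. Summed per group this is 0.601 CPM in iTreg KO (exact Poisson 95% interval 0.362 to 0.938), 0.106 in iTreg WT (0.0289 to 0.272), 0.711 in nTreg KO (0.455 to 1.06) and 2.16 in nTreg WT (1.62 to 2.82), with intervals for counting error only. Of the 19 reads in iTreg KO, 18 came from replicate 2. That library also held the lowest level of its group for 5 of the 9 genes and the highest for 3, and both iTreg replicates 3 were highest of their group for most genes (6 of 9 in KO, 7 of 9 in WT).

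iTreg were compared with nTreg to ask how cells converted in culture carry this programme beside those formed in the animal. Most of it was far lower in iTreg, Pdcd1 was higher, and Bcl6 did not pass the test with either label. Among WT libraries 7 of the 9 genes fell and Pdcd1 rose, and among KO libraries 6 fell and Pdcd1 rose, against a background in which 65.2% of the 12038 genes tested passed in WT (30.4% lower, 34.8% higher) and 61.9% in KO (29.8% lower, 32.1% higher). The median log2 fold change of the 9 genes was -1.55 in KO and -2.38 in WT, beside 0.0089 and 0.049 for all genes tested. In bulk RNA, fewer cells that express a gene and less RNA of it per cell cannot be told apart, here and in the comparisons that follow.

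Tox2 fell furthest, 13.2-fold lower in iTreg KO than nTreg KO (log2 fold change -3.72, SE 0.40, adjusted p = 9.4e-06, edgeR) and 28.8-fold lower in iTreg WT than nTreg WT (-4.85, SE 0.41, adjusted p = 1.2e-06). Slamf6 was 9.98-fold lower among KO libraries (-3.32, SE 0.45, adjusted p = 5.6e-05) and 12.4-fold lower among WT libraries (-3.63, SE 0.45, adjusted p = 2.4e-05), and its adaptor Sh2d1a fell as well, with log2 fold changes of -1.64 (SE 0.47, adjusted p = 0.0094) and -2.38 (SE 0.49, adjusted p = 0.0010). The contact receptor and its adaptor were thus lower in iTreg with both labels. Cxcr5 fell, with -1.83 among KO (SE 0.33, adjusted p = 0.00050) and -2.95 among WT libraries (SE 0.34, adjusted p = 1.3e-05). Tox fell, with -1.55 among KO (SE 0.20, adjusted p = 3.7e-05) and -1.81 among WT libraries (SE 0.20, adjusted p = 9.5e-06), and so did Btla, with -1.27 (SE 0.18, adjusted p = 6.4e-05) and -1.74 (SE 0.18, adjusted p = 4.6e-06). Pdcd1 was 2.74-fold higher in iTreg KO (1.46, SE 0.21, adjusted p = 9.5e-05) and 1.81-fold higher in iTreg WT (0.85, SE 0.21, adjusted p = 0.0033), so that the 2 inhibitory receptors moved in opposite directions.

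Bcl6, the regulator on which the programme rests, did not pass the test in either, with a log2 fold change of -0.36 among KO (SE 0.29, adjusted p = 0.30, edgeR) and -0.63 among WT libraries (SE 0.29, adjusted p = 0.071). Among WT libraries its groups did not overlap, and Bcl6 passed with DESeq2 (adjusted p = 0.038), limma voom (0.012) and edgeR on the 6 libraries alone (0.00094). Il21 fell among WT libraries (-4.31, SE 1.17, adjusted p = 0.0063), while its value among KO libraries rested on iTreg KO replicate 2: it was -0.11 (SE 1.003, adjusted p = 0.93) with that library and -3.63 (adjusted p = 0.013) without it. With all 12 libraries limma voom gave -3.07 (adjusted p = 0.014). Without iTreg WT replicate 3 the falls among WT libraries were larger for Sh2d1a (-3.29 in place of -2.38) and Slamf6 (-4.30 in place of -3.63), and without iTreg KO replicate 3 the fall of Slamf6 among KO libraries was -3.92 in place of -3.32. Without the 3 Xist libraries the calls numbered 7 among KO and 8 among WT libraries, as with all 12.

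**Figure D2:**
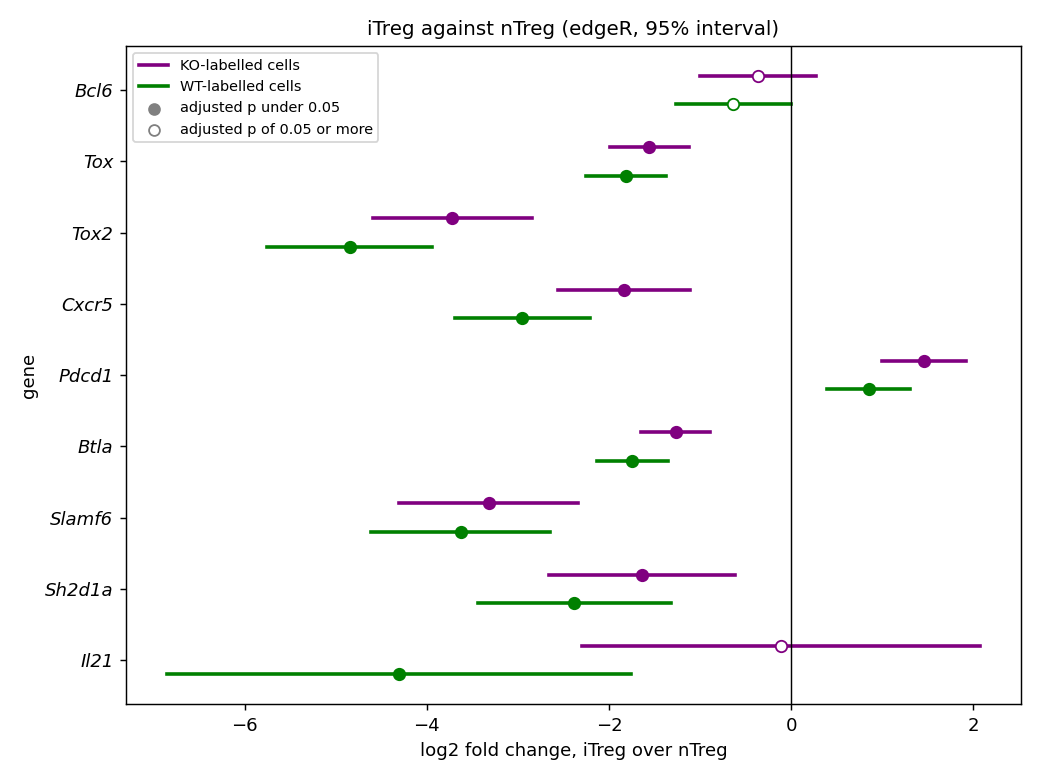
Log2 fold change of iTreg over nTreg (x axis) for each gene (y axis) among KO-labelled (purple) and WT-labelled (green) libraries, with the 95% interval from edgeR, n = 3 libraries per group. Filled points have an adjusted p under 0.05: 7 genes among KO and 8 among WT libraries, of which Pdcd1 alone lies to the right of 0 in both.

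KO-labelled nTreg were set against WT-labelled nTreg to ask what floxing both Hrd1 alleles in place of 1 does to the programme in natural Treg. All 9 genes had a negative log2 fold change, as had 47.9% of all genes tested. The median of the 9 was -0.62, beside 0.0095 for all genes tested. Since the 9 were chosen with earlier results of these data known, such contrasts with all genes are no independent test. None of the 9 passed edgeR's test on all 12 libraries without a replicate term, with adjusted p of 0.14 or more (background 2.53% of the genes tested, 0.341% lower). At an unadjusted p under 0.05 there were 4 (Bcl6, Cxcr5, Pdcd1 and Tox2). The share of all genes at that threshold was not computed, here or for the counts at an unadjusted p below. With DESeq2 1 of the 9 passed (Cxcr5, adjusted p = 0.029) and with limma voom 5, where these called 496 and 1072 genes in all. On the 6 nTreg libraries alone edgeR called 4 of the 9 and 1142 genes in all. In 6 genes (Bcl6, Tox2, Cxcr5, Btla, Slamf6 and Il21) all KO libraries lay below all WT libraries, against 14.1% of all genes tested. With 2 libraries left in each group, 7 genes did so without the 3 Xist libraries (23.7% of all genes tested there) and 6 without both nTreg libraries numbered 2 (22.4%).

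Libraries of the same number and cell type deviated together from their group means, so a fit with that number as a blocking term is given as well. With the block 5 of the 9 genes fell (background 9% of genes, 3.64% lower). Cxcr5 was 2.06-fold lower in nTreg KO without the block (log2 fold change -1.04, SE 0.31, adjusted p = 0.14, edgeR), and with it the adjusted p was 0.00075. Slamf6 was 1.54-fold lower (-0.62, SE 0.40, adjusted p = 0.54 and, with the block, 0.0037), and Tox2 1.66-fold lower (-0.73, SE 0.33, adjusted p = 0.36 and, with the block, 0.049). These 3 were thus lower by similar amounts in both fits and differed in whether they passed. Both fits draw on all 12 libraries for the spread. On the 6 nTreg libraries alone, edgeR without the block gave adjusted p of 0.011 for Cxcr5, 0.00033 for Slamf6 and 0.0085 for Tox2. Pdcd1 had a log2 fold change of -0.48 (SE 0.21, adjusted p = 0.35, with the block 0.033) and Btla of -0.32 (SE 0.17, adjusted p = 0.45, with the block 0.047).

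The other 4 did not pass in either fit. Of these, Bcl6 passed with limma voom (adjusted p = 0.031) and with edgeR on the 6 nTreg libraries alone (adjusted p = 0.014). Bcl6 had a log2 fold change of -0.67 (SE 0.29, adjusted p = 0.34, with the block 0.14) and Il21 of -1.73 (SE 0.93, adjusted p = 0.46, with the block 0.085). Tox, at -0.16 (95% interval -0.59 to 0.26, adjusted p = 0.77), and Sh2d1a, at -0.07 (-1.06 to 0.91, adjusted p = 0.97), had the smallest differences, and the interval of Sh2d1a was wide.

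Within libraries of the same number, the KO level was below the WT level in all 3 numbers for 8 of the 9 genes in nTreg, the exception being Sh2d1a, against 28% of all genes tested. The KO over WT ratio for numbers 1, 2 and 3 was 0.478, 0.428 and 0.584 for Cxcr5, 0.675, 0.642 and 0.632 for Slamf6, 0.595, 0.640 and 0.572 for Tox2, 0.617, 0.679 and 0.577 for Bcl6, and 0.231, 0.260 and 0.483 for Il21. For Slamf6, Tox2 and Bcl6 the 3 numbers gave close to the same ratio. Tox had ratios of 0.893, 0.882 and 0.904, a decrease of the same small size in each number.

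**Figure D3:**
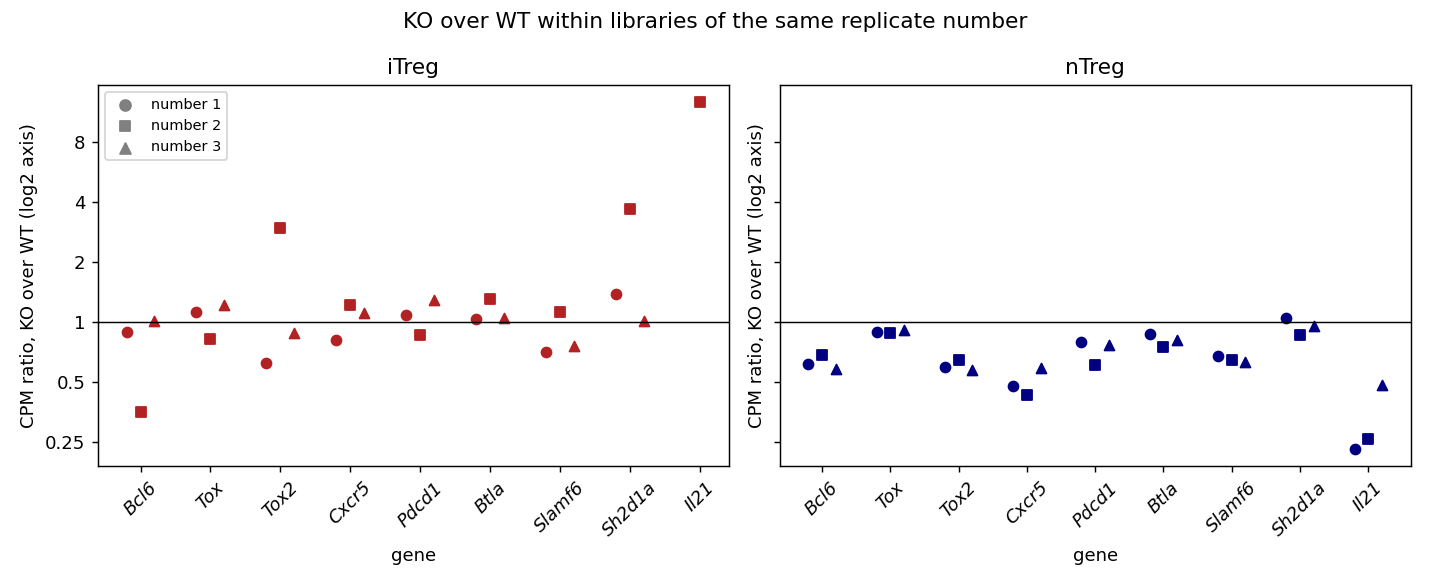
CPM of the KO library over that of the WT library with the same replicate number (y axis, log2 scale) for each gene (x axis) in iTreg (left) and nTreg (right), with a symbol per number. In nTreg the points lie below 1 for 8 genes in all 3 numbers. In iTreg they lie on both sides of 1 for most genes, and above 1 in all 3 numbers for Btla and Sh2d1a. Number 2 stands apart there for Bcl6, Tox2 and Sh2d1a. Il21 has 1 point in iTreg, since the other numbers held a library with 0 reads.

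Transcripts of other cells were looked at beside the nTreg result, since B cells also express Cxcr5, Bcl6, Btla and Slamf6. The summed level of 10 B cell markers was 17.5 to 18.0 CPM in nTreg KO against 31.4 to 35.2 CPM in nTreg WT, and 1.06 to 3.16 CPM in iTreg. Cd22, at 3.02 to 4.40 CPM in nTreg KO against 10.8 to 15.4 CPM in nTreg WT (log2 fold change -1.80, SE 0.33, adjusted p = 0.010, edgeR), and Cd79b, at 11.4 ± 1.22 CPM in nTreg KO against 16.0 ± 1.67 CPM in nTreg WT (SD, n = 3 each), made up most of that sum. The defining B cell genes Ms4a1, Cd79a and Pax5 were at 1.33 CPM or less in every library, with averages of 0.515, 0.533 and 0.0210 CPM in nTreg KO against 0.348, 0.988 and 0.124 CPM in nTreg WT. Cd79a and Pax5 were lower in nTreg KO, and Ms4a1 was higher. The sum of 8 myeloid markers spread widely, from 41.0 to 433 CPM in nTreg KO and from 52.9 to 199.6 CPM in nTreg WT, and was at 5.92 CPM or less in iTreg. The 4 NK cell markers summed to 2.52 to 3.59 CPM in nTreg KO and 2.79 to 6.06 CPM in nTreg WT, the pair of CD8 T cell markers to 14.7 to 19.1 CPM in nTreg KO and 12.03 to 17.03 CPM in nTreg WT, and the 4 plasma cell markers found to 15.9 to 28.7 CPM in nTreg KO and 14.2 to 39.4 CPM in nTreg WT. The part of these cells in the levels of the 9 genes was not tested.

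In iTreg the same contrast of labels gave no call. None of the 9 genes passed edgeR's test in KO-labelled against WT-labelled iTreg, with the block (background 0.947% of genes tested) or without it (background 0.183%), by DESeq2 or by limma voom. At an unadjusted p under 0.05 there were 0 without the block and 2 with it (Slamf6 and Il21). The median log2 fold change was 0.12, beside -0.013 for all genes tested, and ranged from -0.11 (without iTreg KO replicate 3) to 0.36 (without iTreg WT replicate 3) when 1 library was left out. In levels, the KO and WT libraries overlapped for every one of the 9 genes, where 9.63% of all genes tested did not overlap. Log2 fold changes were 0.08 for Cxcr5 (95% interval -0.67 to 0.82, adjusted p = 0.99), 0.12 for Pdcd1 (-0.33 to 0.57, adjusted p = 0.94), 0.10 for Tox (-0.34 to 0.53, adjusted p = 0.96) and 0.15 for Btla (-0.22 to 0.53, adjusted p = 0.90). These 4 were close to 0 with intervals on both sides of it. Bcl6 was at -0.40 (-1.03 to 0.24, adjusted p = 0.82), and Slamf6 (-0.31, adjusted p = 0.92), Tox2 (0.40, adjusted p = 0.91) and Sh2d1a (0.67, adjusted p = 0.82) had wider intervals. Il21, at 2.46 (SE 1.28, adjusted p = 0.71), turned to -1.05 without iTreg KO replicate 2.

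**Figure D4:**
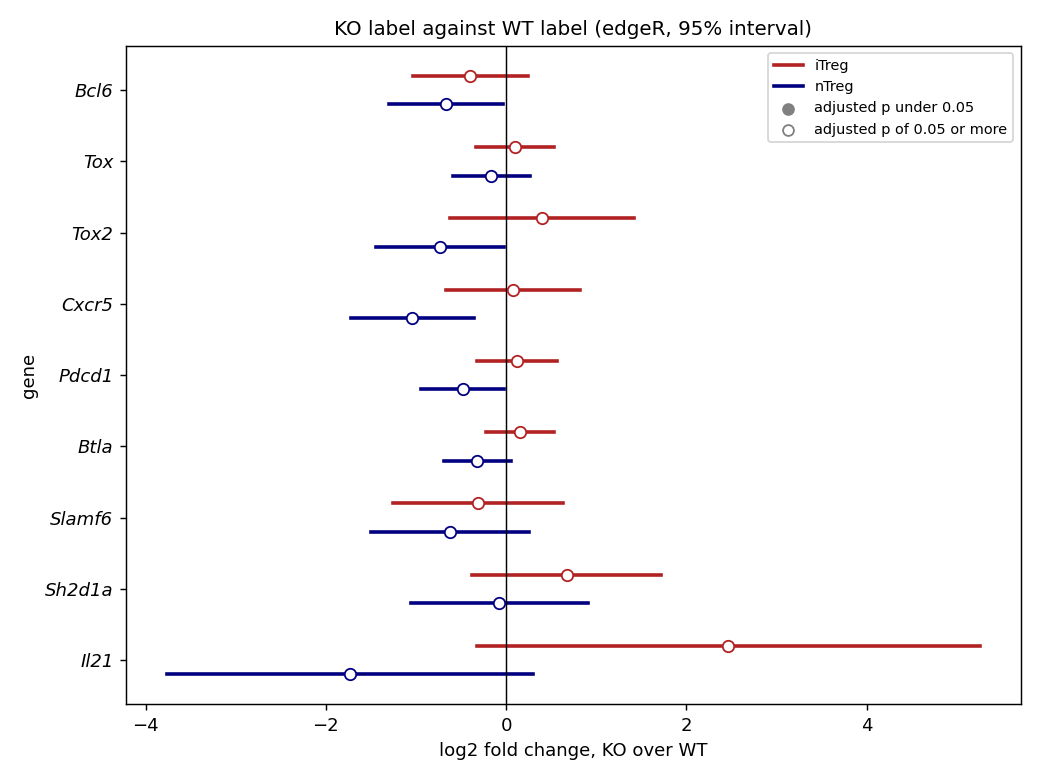
Log2 fold change of KO over WT (x axis) for each gene (y axis) in iTreg (red) and nTreg (blue), with the 95% interval from edgeR without the replicate block, n = 3 libraries per group. All points are open, with an adjusted p of 0.05 or more. The nTreg points lie to the left of 0 for all 9 genes and the iTreg points for 2.

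Whether the effect of the label differed between cell types was tested directly as the iTreg minus the nTreg log2 fold change. The difference was positive for all 9 genes, where 54.6% of all genes tested had a negative one. Its median was 0.60, beside -0.031 for all genes tested, and none of the 9 passed (background 0.291%). Over fits that left out 1 library the median ranged from 0.37 (without iTreg KO replicate 3) to 0.99 (without iTreg WT replicate 3). At an unadjusted p under 0.05 there were 2 genes, Cxcr5 and Il21, and 0 passed by DESeq2 and limma voom. Il21 differed by 4.19 (SE 1.58, adjusted p = 0.53, edgeR), and by 0.68 to 4.77 over fits that left out 1 library. Of its 19 reads in iTreg KO, 18 came from replicate 2. Cxcr5 differed by 1.12 (SE 0.46, adjusted p = 0.60, edgeR) and was the single gene to pass with the block (1.07, adjusted p = 0.031, background 1.8%). Tox2 differed by 1.13 (SE 0.57, adjusted p = 0.74), Pdcd1 by 0.60 (SE 0.29, adjusted p = 0.72), Btla by 0.47 (SE 0.24, adjusted p = 0.74) and Sh2d1a by 0.75 (SE 0.66, adjusted p = 0.94). The smallest differences were those of Slamf6 (0.31, SE 0.59), Bcl6 (0.27, SE 0.41) and Tox (0.26, SE 0.28), and Slamf6 turned to -0.07 without the 3 Xist libraries and to -0.29 without iTreg KO replicate 3.

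Genes listed as favouring the follicular programme, 18 by list and 17 of them tested, were examined for the company the 9 genes kept. The list also holds Id3, an inhibitor of E proteins, while its relative Id2 is on the opposing list below. The place of Id3 here is thus open to question, and its changes are not read as losses of a favouring gene. In nTreg KO against WT none passed edgeR's test on all 12 libraries without a replicate term, with a median log2 fold change of -0.23. An unadjusted p under 0.05 was found for 2. DESeq2 called 0 of the list, limma voom 3, and edgeR on the 6 nTreg libraries alone 6. Over all genes these called 496, 1072 and 1142. With the block the interleukin-6 receptor subunits Il6st (-0.55, adjusted p = 0.0056) and Il6ra (-0.76, adjusted p = 0.018) fell. In that fit 9% of all genes tested passed (3.64% lower). Cd40lg, the ligand through which helper T cells activate B cells, had 20.7 ± 3.65 CPM in nTreg KO against 33.9 ± 3.67 CPM in nTreg WT without passing (-0.71, SE 0.32, adjusted p = 0.37). Nfatc1, an effector of T cell receptor signalling (-0.27, SE 0.13, adjusted p = 0.37), and Irf4, a factor of activated T cells (0.26, SE 0.12, adjusted p = 0.35), did not pass either.

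In iTreg KO against WT none of the 17 passed (2 at an unadjusted p under 0.05, 1 by DESeq2, 0 by limma voom), with a median of -0.07. In that comparison DESeq2 called 99 genes in all. Maf, a factor that promotes Il21 in helper T cells, was at 153, 177 and 219 CPM in iTreg KO against 127, 79.0 and 121 CPM in iTreg WT. It was at 163, 212 and 200.3 CPM in nTreg KO against 225, 232 and 259 CPM in nTreg WT. Both cell types were without overlap, in opposite directions, and the iTreg change was 0.75 (SE 0.18, adjusted p = 0.23, edgeR). The difference between cell types for Maf was 1.06 (SE 0.26, adjusted p = 0.17, and 0.044 with the block). Id3, an inhibitor of E proteins, was at 21.9 ± 4.23 CPM in iTreg KO against 31.9 ± 2.42 CPM in iTreg WT (-0.54, SE 0.17, adjusted p = 0.41), and Irf4 had a log2 fold change of 0.23 (SE 0.11, adjusted p = 0.70).

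Between cell types, 7 of the 17 fell and 4 rose in iTreg among KO libraries, and 12 fell and 3 rose among WT libraries, with medians of -0.43 and -0.68. Over all genes tested the shares were 29.8% lower and 32.1% higher among KO and 30.4% lower and 34.8% higher among WT libraries. Without the 3 Xist libraries 9 of the 17 passed among WT libraries, in place of 15. Irf4 had the smallest p of the list, at 945 ± 45.5 CPM in iTreg KO against 149 ± 2.81 CPM in nTreg KO (log2 fold change 2.67, SE 0.12, adjusted p = 3.5e-08) and at 803 ± 135 CPM in iTreg WT against 124 ± 7.52 CPM in nTreg WT (2.69, SE 0.12, adjusted p = 2.0e-08). Id3 fell (-1.60 among KO and -1.40 among WT libraries, SE 0.17 in both), and so did Batf, the AP-1 partner of Irf4 (-1.71 and -1.76, SE 0.22 in both). Irf4 and its partner Batf thus moved in opposite directions.

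Of 13 genes that oppose the programme, all tested, none passed in nTreg KO against WT (median log2 fold change -0.12). An unadjusted p under 0.05 was found for 2. DESeq2, limma voom and edgeR on the 6 nTreg libraries alone called 2 of the list each. Over all genes these called 496, 1072 and 1142. With the block Il2ra, the alpha chain of the IL-2 receptor, rose (0.47, adjusted p = 0.012, and 0.089 without the block) and Foxo1, a factor of quiescent T cells, fell (-0.35, adjusted p = 0.037, and 0.19 without). In the blocked fit 9% of all genes tested passed (3.64% lower). Il2ra was at 1164 ± 81.5 CPM in nTreg KO against 838 ± 38.6 CPM in nTreg WT. None of the 13 passed in iTreg KO against WT (1 at an unadjusted p under 0.05, 0 by DESeq2 and by limma voom; median -0.06), where Selplg (-0.26, adjusted p = 0.61), S1pr1 (-0.57, adjusted p = 0.76) and Klf2 (-0.61, adjusted p = 0.80) had the smallest p-values.

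Between cell types this list split, with 6 lower and 5 higher in iTreg among KO libraries and 5 lower and 4 higher among WT libraries. Thus 11 and 9 of the 13 passed, where 61.9% and 65.2% of all genes tested did. Prdm1, which encodes Blimp-1, the repressor that opposes Bcl6, was at 2.83 ± 1.44 CPM in iTreg KO against 30.6 ± 3.70 CPM in nTreg KO (-3.43, SE 0.31, adjusted p = 2.5e-06) and at 2.51 ± 0.804 CPM in iTreg WT against 37.1 ± 4.73 CPM in nTreg WT (-3.89, SE 0.32, adjusted p = 7.5e-07). Prdm1 fell in iTreg, as did Cxcr5 and Slamf6. S1pr1, a receptor for exit from lymphoid tissue, fell (-3.39 among KO and -2.92 among WT libraries), and Il2ra rose (1.36 and 1.91).

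Binding partners and relatives of the 9 genes, 22 by list and 19 tested, held the calls nearest to them in nTreg KO against WT. Ly9, a SLAM family receptor encoded like Slamf6 on chromosome 1, was at 169, 158 and 163 CPM in nTreg KO against 245, 244 and 251 CPM in nTreg WT and fell (-0.60, SE 0.12, adjusted p = 0.016, edgeR). Il2rg, the common gamma chain that the IL-21 receptor shares, was at 532, 546 and 552 CPM in nTreg KO against 765, 748 and 778 CPM in nTreg WT and fell as well (-0.49, SE 0.10, adjusted p = 0.025). Both genes were tight within each group, yet neither passed in any of the 6 fits that left out 1 nTreg library, nor without the 3 Xist libraries. With the block 4 fell, adding Fyn, the kinase that SAP recruits (-0.27, adjusted p = 0.040), and Slamf7 (-1.35, adjusted p = 0.019). Over all genes tested 2.53% passed without the block (0.341% lower) and 9% with it (3.64% lower). With limma voom 4 of the list passed, and with edgeR on the 6 nTreg libraries alone 5. These called 1072 and 1142 genes in all. Of the 19, 18 had a negative log2 fold change, with a median of -0.26. Over all genes tested 47.9% had one, with a median of 0.0095.

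None of the 19 passed in iTreg KO against WT without the block (3 at an unadjusted p under 0.05, 0 by DESeq2 and by limma voom; median 0.07), and with it Il2rg fell (-0.36, adjusted p = 0.048). Ly9 (-0.34, adjusted p = 0.49) and Cd48 (-0.31, adjusted p = 0.60) came next by p. Of all genes tested, 0.947% passed in iTreg with the block and 0.183% without it. Between cell types 10 of the 19 fell in iTreg with each label, and 6 rose among KO and 3 among WT libraries. Thus 16 and 13 of the 19 passed where 61.9% and 65.2% of all genes tested did. Of the SLAM receptors, those with the smallest p fell, Cd84 with log2 fold changes of -2.10 among KO and -2.46 among WT libraries (SE 0.21 and 0.22), Cd48 with -1.56 and -1.52 (SE 0.13 in both) and Ly9 with -1.08 and -1.33 (SE 0.12 in both). Slamf7 rose among KO libraries (2.10, SE 0.71, adjusted p = 0.023, edgeR). It spread from 4.85 to 33.1 CPM in iTreg KO against 3.02 to 4.06 CPM in nTreg KO. Among WT libraries its log2 fold change was 0.35 (adjusted p = 0.67).

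**Figure D5:**
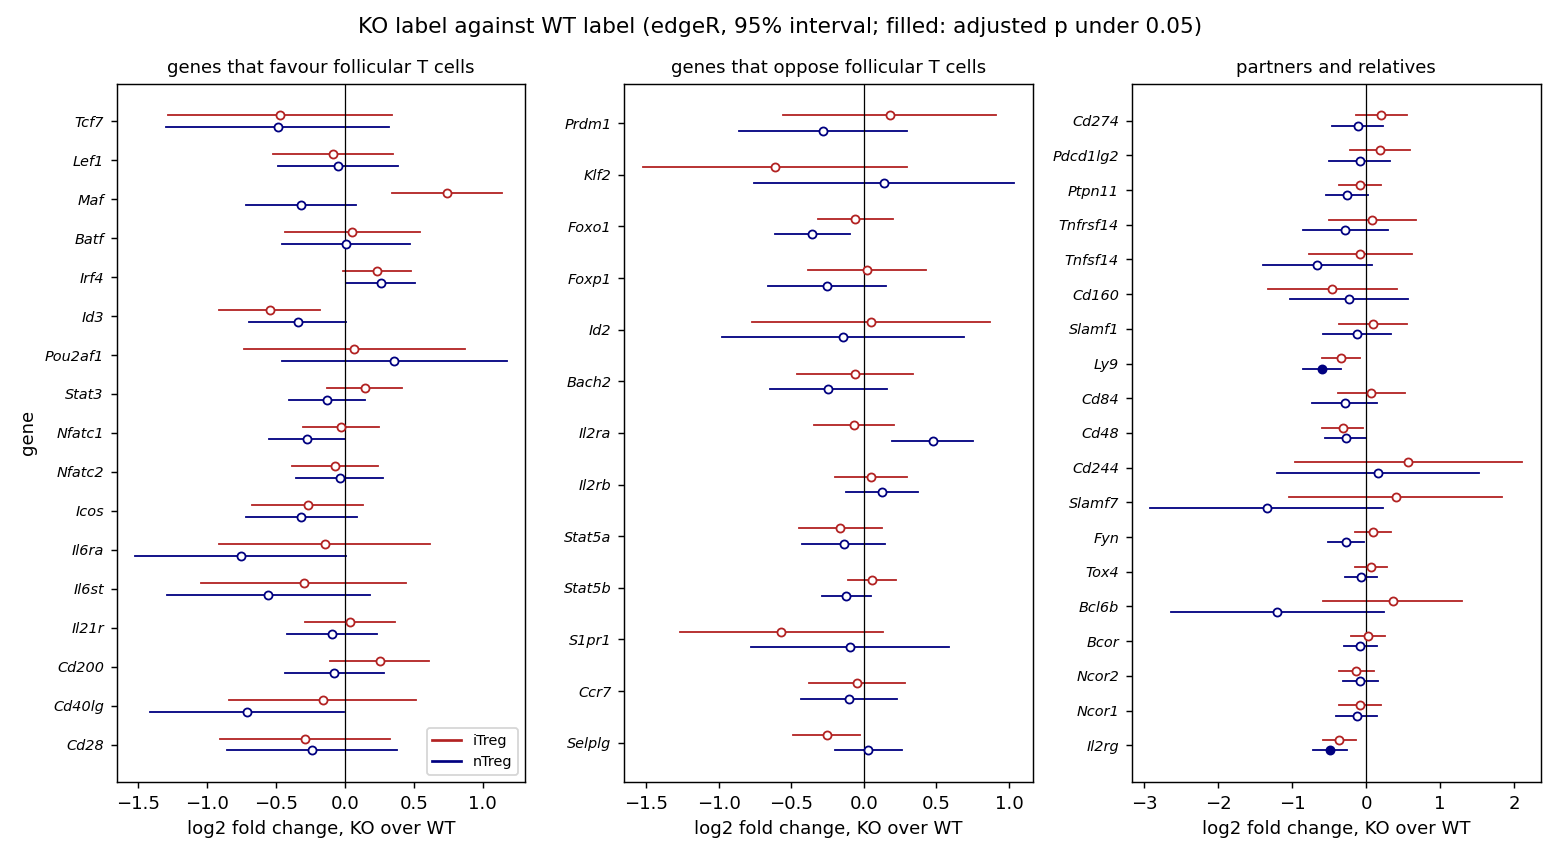
Log2 fold change of KO over WT (x axis) in iTreg (red) and nTreg (blue) for the tested genes of 3 lists (y axis). The lists are genes listed as favouring follicular T cells (Id3 among them), genes that oppose them, and partners and relatives of the 9 genes. Lines are 95% intervals from edgeR without the replicate block, and filled points, of which Ly9 and Il2rg in nTreg are the 2, have an adjusted p under 0.05.

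Genes most like each member across libraries are given as a description, by Pearson correlation of log2 CPM over the 12 libraries, which fall into the 2 cell types. Tox2 was most like Prr14 (r = 0.998) and Stat4 (0.997), Slamf6 was among others like Ms4a6b (0.997), and Cxcr5 was most like Zfyve28 (0.991) and Nav2 (0.990). Tox was most like Tsc22d2 (0.993) and Sp4 (0.992), Btla like Gmip and Tbc1d2b (0.991 each), and Sh2d1a like Fermt3 (0.974) and Unc45a (0.971). For Pdcd1 they were Fmnl3 (0.966) and Exoc2 (0.958), for Bcl6 Aff4 (0.957) and Cramp1l (0.951), and for Il21, with few reads, Lzts1 (0.940) and Myst1 (0.929). With group means removed the pairs were others, Slamf6 with Aff3 (0.989) and Dgkd (0.985), Cxcr5 with Dnm1l (0.960) and Cd9 (0.958), and Tox2 with Kri1 (0.984) and Cd6 (0.980), over deviations that same-number libraries share.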

How the data were processed

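RNA of iTreg and nTreg was sequenced in 12 libraries. The deposited values are raw counts for 23337 gene symbols, in 1 file per library, and cutadapt 1.13, STAR, HTSeq 0.6.1p1, DESeq2 and the build mm10 are named in the submitters' processing notes, without their roles. Annotation and strand setting are not given in the sources used here. The values were checked to be whole numbers with differing totals, and no 2 libraries were identical.

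Tests are two-sided, from the quasi-likelihood method of edgeR 4.0.16 (R 4.3.3), with TMM factors, robust dispersions and 4 group means fitted to the 12 libraries together (8 residual degrees of freedom). Of the genes, 12038 passed its expression filter (minimum count 10, total 15), the 9 follicular genes included, and p-values were adjusted over all of them after Benjamini and Hochberg with a threshold of 0.05; a call or a pass means an adjusted p under it, and the SE was computed from the log2 fold change and F. Counting intervals are exact Poisson 95% intervals and cover counting error only. The test was tried on simulated data.

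The 9 genes and the gene lists were chosen with earlier results of these data known. Named beside them are Syvn1, up to 3 genes of smallest p per list and comparison, genes of the marker lists, list genes that passed with the replicate block, and the 2 genes most correlated with each member, leaving out predicted genes and antigen receptor segments. Not every gene that these rules name is reported here.

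KO and WT libraries of the same replicate number deviated together from their group means (r of 0.545 to 0.651 in nTreg and 0.337 to 0.664 in iTreg, against -0.449 to -0.0723 and -0.558 to 0.138 for other numbers), so a fit that blocks on the number within cell type (4 residual degrees of freedom) stands beside the KO comparisons. Same-numbered iTreg and nTreg libraries did not (-0.0823 to 0.0992). Alternatives were RLE size factors, totals without TMM, no filter, a filter of CPM 5 in 3 libraries, DESeq2 1.42.0, limma 3.58.1 (voom with quality weights), the block, a fit to only the 6 libraries compared, and leaving out each library, the 3 libraries with Xist, or both nTreg libraries numbered 2. Coordinates and exon lengths are from GENCODE M21. Figures were drawn with matplotlib 3.10.9.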

Additional observations from a re-analysis of the deposited data

Results flagged for a closer look

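The response of Cxcr5 to the KO label differed between the cell types in the fit blocked on the replicate number, by a log2 fold change of 1.07 (iTreg minus nTreg, adjusted p = 0.031, quasi-likelihood test of edgeR, adjusted after Benjamini and Hochberg over all 12038 genes), where Cxcr5 averaged 9.37 CPM in iTreg KO and 9.05 CPM in iTreg WT, and 33.8 CPM in nTreg KO and 69.8 CPM in nTreg WT. Without the block the difference was 1.12 (adjusted p = 0.60).

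Btla stood higher in KO than in WT within each replicate number in iTreg (ratios of 1.03, 1.30 and 1.05) and lower in each in nTreg (0.864, 0.745 and 0.810). The difference of both effects, 0.47 on the log2 scale, did not pass the test (adjusted p = 0.74, edgeR, and 0.094 with the block). Of all genes tested, 14.1% were higher in KO in every number in iTreg, and 28% were lower in every number in nTreg. The share with both patterns was not computed.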

How the results depend on the processing

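Under RLE size factors and no filter no call on a follicular gene changed. The stricter filter left Il21 untested, so 7 of the 9 genes passed in iTreg WT against nTreg WT in place of 8, with a median log2 fold change of -2.11 in place of -2.38. Totals without TMM were used for levels and overlaps only, and 5 genes in place of 6 were then without overlap in nTreg. Of the 9 genes in nTreg KO against WT, 5 passed with the replicate block, 5 with limma voom, 4 on the 6 libraries alone and 1 with DESeq2, against 0 in the fit reported, and 1 of the differences passed with the block. Genes called in all, 304 in nTreg, became 496 (DESeq2), 1072 (voom), 1083 (block), 1142 (6 libraries), 71 (without the Xist libraries) and 103 (without both nTreg libraries numbered 2). In iTreg, 22 became 99 (DESeq2), 114 (block), 0 (6 libraries) and 0 (no Xist libraries). For the difference, 35 became 140 (DESeq2), 98 (voom), 217 (block), 1 (no Xist libraries) and 1 (without numbers 2). In iTreg, voom turned Tox2 to -0.15, Slamf6 to 0.040 and Il21 to -0.84, and Cxcr5 became -0.19 without the Xist libraries, where the difference of Slamf6 became -0.074 and 1 of the 9 differences was negative. Without numbers 2, Sh2d1a in nTreg became 0.0033 and Il21 in iTreg KO against nTreg KO became 0.17; Syvn1 in iTreg WT against nTreg WT became 0.067, and 0.014 without the Xist libraries. The cause was not tested. Leaving out 1 library at a time, genes called ranged over 167 to 216 in nTreg, 0 to 64 in iTreg, 1 to 58 for the difference, 6608 to 7294 between cell types in KO and 7099 to 7842 in WT, and follicular genes with a negative log2 fold change over 8 to 9, 1 to 5 and 0 to 2 in nTreg, iTreg and the difference. Log2 fold changes that turned ranged from -0.19 to 0.037 for Sh2d1a in nTreg, from -0.40 to 0.43 for Cxcr5, -1.05 to 3.04 for Il21, -0.11 to 0.32 for Pdcd1, -0.91 to 0.36 for Slamf6 and -0.19 to 0.30 for Tox in iTreg, from -3.63 to 0.46 for Il21 in KO and -0.24 to 0.14 for Syvn1 in WT between cell types, and for the difference from -0.29 to 0.99 for Slamf6 and -0.027 to 0.46 for Tox. With 4 reads in iTreg WT, Il21 was near the limit of detection at this depth.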
